A study of Homo sapiens with 12 samples.

Results

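The 10 genes described here encode the subunits, inhibitors and cytokine targets of NF-κB. They were taken by name, by a rule that did not use their values but was set with earlier results of these data known. All 10 were among the 14029 genes tested. They comprise the subunit genes NFKB1, NFKB2, RELA and RELB, the inhibitor genes NFKBIA, NFKBIE and TNFAIP3, and the target genes CXCL8, IL6 and BIRC3. Expression was measured by sequencing of poly(A) RNA from ES-2, an established human ovarian cancer cell line. The cells carried either a control vector (PLKO, labelled WT) or an shRNA against SRMS, a non-receptor tyrosine kinase (labelled SRMS knockdown). Each of these 2 lines received PBS or 15 µM cisplatin, a DNA-crosslinking drug, for 8 hours. Of the 12 samples in 4 groups of 3, the 6 given cisplatin are compared here, 3 with the vector and 3 labelled SRMS shRNA. Every library compared had received the drug, so the values show a difference between constructs under cisplatin and no response to cisplatin. The sources used here do not give the hairpin's sequence, the number of hairpins or whether either line was a single clone.

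NF-κB is a family of transcription factors that bind DNA as dimers through a shared Rel homology domain. In resting cells IκB proteins hold the dimers in the cytoplasm, and signals from TNF, interleukin-1 or Toll-like receptors activate the IκB kinase (IKK), which marks IκB for degradation and frees the dimers to enter the nucleus. Among the genes then switched on are those of the inhibitors themselves, which closes a negative feedback loop, and those of chemokines and cytokines such as CXCL8 and IL6. Carcinoma cells often secrete both, and DNA damage can also activate the pathway.

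Reads recovered over all 14029 genes ran from 28009232 to 56855428 per library. Nothing in the labels ties replicates to separate cultures, so the p-values reflect spread between libraries that may be technical. Replicates 2 and 3 were closer to each other than to replicate 1, with a root mean square difference over 11353 genes of 0.10 on the log2 scale with the vector (0.15 and 0.15 for pairs with replicate 1) and 0.12 under the SRMS shRNA label (0.18 and 0.18). Few reads fell on SRMS, namely 2, 14 and 47 in vector replicates 1, 2 and 3 and 9, 39 and 27 in replicates labelled SRMS shRNA. It was not lower in the libraries so labelled (log2 fold change 0.52, 95% interval -0.15 to 1.19, limma adjusted p = 0.168). A two-sided exact permutation p was 0.2, and 3 against 3 libraries cannot give less than 0.1. Blocking on replicate number brought the limma adjusted p to 0.00782, toward more SRMS. The limma adjusted p also passed 0.05 in that direction without vector replicate 3 (0.84, adjusted p = 0.0281) or without SRMS shRNA replicate 1 (0.79, adjusted p = 0.0245), in a range from 0.00782 to 0.527 over 20 alternatives. The libraries are therefore named below by their labels. Of 12 markers of an ovarian carcinoma line 7 were tested. KRT8, KRT18 and VIM were abundant, PAX8 had a mean signal of 0.136 with the vector and 0.241 under the SRMS shRNA label, and EPCAM, CDH1, MUC16 and KRT19 were not among the genes tested. Of the 7, 4 were higher and 2 lower under the SRMS shRNA label at a limma adjusted p under 0.05, where 26.6% and 30.2% of all genes were. KRT8, KRT18, VIM and FN1 were higher, with log2 fold changes of 0.18, 0.21, 0.29 and 0.27. CDH2 was lower at -0.17. WT1 fell from 2.84 ± 0.331 to 1.42 ± 0.0700 (SD, n = 3 each, log2 fold change -0.80, limma adjusted p = 0.000175).

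The promoters are shown first because feedback and target genes of NF-κB respond through κB sites. RefSeq windows from 250 bases before to 50 bases after a transcription start (GRCh38.p14) matched 8 members, with 12 starts in all. They were searched on both strands for the κB consensus, a motif of 10 bases, and for the shorter pattern GGNNNTTCC. Matches to the 2 motifs overlap at most positions. The κB consensus occurred in windows of 6 members and GGNNNTTCC in windows of 7, by start in 7 and 8 of the 12 windows. Over all 35116 windows the shares were 11.3% and 20.1%. The 120 bases before the start are printed for the 3 members that were lower in the comparison below and for 2 that did not pass its test, with every match in capitals.
NFKB1, chr4:102501239-102501358, plus strand: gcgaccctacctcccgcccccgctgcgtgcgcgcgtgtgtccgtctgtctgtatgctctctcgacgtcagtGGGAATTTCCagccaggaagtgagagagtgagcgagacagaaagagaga
NFKBIA, chr14:35404750-35404869, minus strand: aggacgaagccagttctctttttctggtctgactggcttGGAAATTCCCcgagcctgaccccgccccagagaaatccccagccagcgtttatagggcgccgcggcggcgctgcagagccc
CXCL8, chr4:73740449-73740568, plus strand: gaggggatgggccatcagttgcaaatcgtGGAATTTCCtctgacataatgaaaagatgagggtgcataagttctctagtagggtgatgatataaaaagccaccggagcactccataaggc
TNFAIP3, chr6:137867139-137867258, plus strand: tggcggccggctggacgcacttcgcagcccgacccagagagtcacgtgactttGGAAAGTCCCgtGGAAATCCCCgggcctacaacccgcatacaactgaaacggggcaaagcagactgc
IL6, chr7:22727080-22727199, plus strand: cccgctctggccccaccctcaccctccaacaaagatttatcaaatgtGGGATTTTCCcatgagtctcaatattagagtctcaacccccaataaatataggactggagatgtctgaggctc
The match lay 49 bases before the first NFKB1 start, 81 before that of NFKBIA and 73 before that of IL6. TNFAIP3 carried matches at 67 and 55 bases. CXCL8 had a match to the shorter pattern alone, 91 bases before its start. NFKBIA had a further match to the shorter pattern 242 bases before its start. The second NFKB2 start had 3 match positions for each motif and the third had 2, BIRC3 had κB consensus matches at 199 and 135 bases, and neither window of RELA held a match. A match describes letters in this window and not binding.

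**Figure D1:**
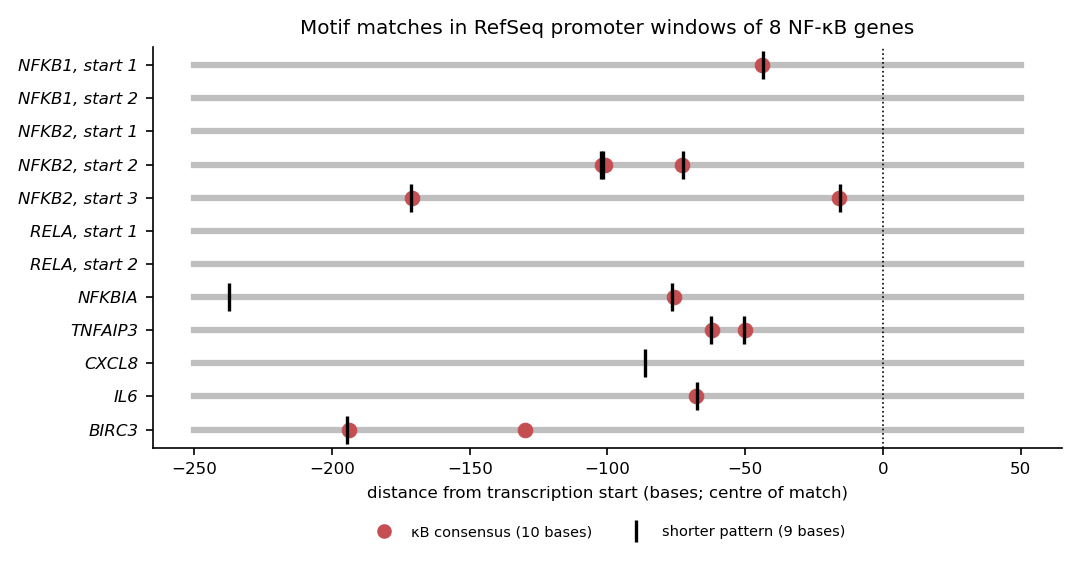
Positions of motif matches in 12 RefSeq promoter windows of 8 NF-κB genes. The horizontal axis is the distance in bases from the transcription start, circles mark the κB consensus and ticks the shorter pattern GGNNNTTCC. NFKB1, NFKBIA, TNFAIP3, IL6 and CXCL8 each have a match between 49 and 91 bases before a start, and the 2 RELA windows have none.

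Among the 10 members, NFKB1, CXCL8 and NFKBIA were lower in the libraries labelled SRMS shRNA and no member was higher at a limma adjusted p under 0.05, the threshold for all calls below. Across all 14029 genes 56.8% passed the same test, 26.6% higher and 30.2% lower, so 3 of 10 lower is close to the share among all genes and 0 of 10 higher is below it. The median log2 fold change of the 10 members was -0.04, against 0.0031 over all genes. Groups that did not overlap were found for the same 3 members, and for 62.7% of all genes. Values below are the deposited signal, which is reads scaled to an effective library size, as for CPM, and folds are on the scale of log2(signal + 0.5), which understates the change of low genes. In bulk RNA, fewer cells that express a gene and less RNA per cell cannot be told apart.

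**Figure D2:**
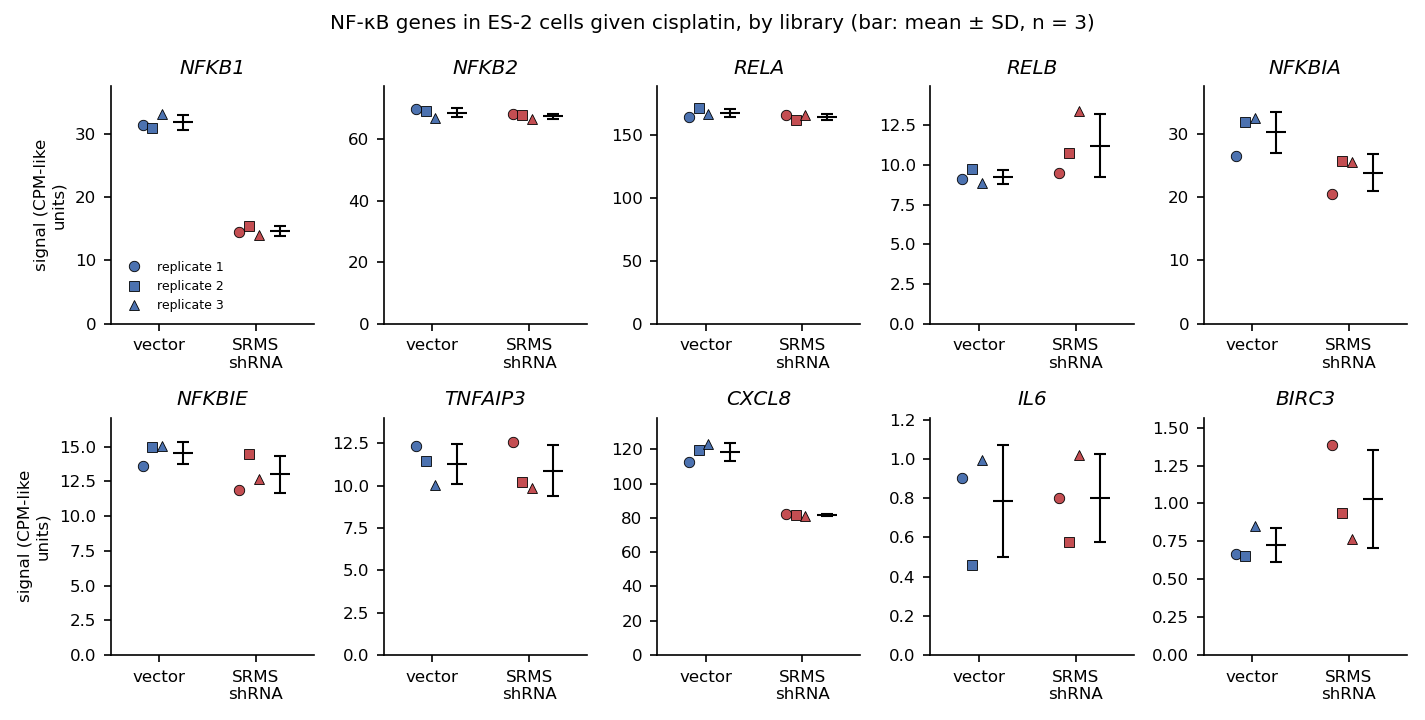
Signal of the 10 NF-κB genes in each library given cisplatin. Each panel has its own vertical axis from 0 in CPM-like units, symbols are replicates 1, 2 and 3, and the bar is the mean ± SD (n = 3). NFKB1, NFKBIA and CXCL8 separate the 2 groups and the other 7 overlap.

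NFKB1, which encodes p105, the precursor of the DNA-binding subunit p50, showed the largest difference of the members. Its signal was 31.5, 31.0 and 33.3 in vector replicates 1, 2 and 3, and 14.4, 15.5 and 14.1 in replicates labelled SRMS shRNA. Every vector library lay above every library labelled SRMS shRNA by a wide margin, and the mean fell by 54.0%, from 31.9 ± 1.20 to 14.7 ± 0.761 (SD, n = 3 each). On the log2 scale the difference was -1.09 (SE 0.0600, 95% interval -1.23 to -0.96, limma adjusted p = 5.51e-07). Only 0.798% of all genes had a lower log2 fold change. The gene (ENSG00000109320) lies on chromosome 4 from 102501329 to 102617302 of GRCh38, plus strand, with 4270 reads over the vector libraries and 1401 over those labelled SRMS shRNA. These sums are not scaled for depth, and the libraries labelled SRMS shRNA held fewer reads in all.

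RELA encodes p65, the usual partner of p50 and the main activating subunit. Its signal was 164, 171 and 166 in vector replicates 1, 2 and 3, and 166, 161 and 165 in replicates labelled SRMS shRNA. The groups overlapped, and the log2 fold change of -0.03 had a 95% interval from -0.10 to 0.05 (limma adjusted p = 0.537). NFKB2 encodes p100, the precursor of p52 in the non-canonical branch. It had 69.8, 69.3 and 67.0 with the vector and 68.2, 67.9 and 66.6 in the libraries labelled SRMS shRNA, again with overlap (log2 fold change -0.02, 95% interval -0.11 to 0.06, limma adjusted p = 0.622). Both intervals are narrow, so a difference of the size seen for NFKB1 lies far outside them. With the libraries aligned on their median, which moves the median of all genes by 0.16, both were called higher, RELA at 0.13 (limma adjusted p = 0.00548, range 0.00021 to 0.869 over 21 alternatives) and NFKB2 at 0.14 (adjusted p = 0.00943, range 0.00943 to 0.95). Both lay below the median of all genes in that fit, which was 0.16, and 44.6% of all genes were called higher in it. After removal of trends with GC content and transcript length, in the fit with the replicate block, both were called lower, at -0.11 (limma adjusted p = 0.00021) and -0.07 (adjusted p = 0.0361).

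RELB, the non-canonical partner of p52, had 9.13, 9.76 and 8.85 with the vector and 9.49, 10.8 and 13.4 in the libraries labelled SRMS shRNA. Replicate 3 labelled SRMS shRNA stood highest, while replicate 1 of that group lay within the vector range. Its log2 fold change of 0.25 (SE 0.112, 95% interval 0.0036 to 0.50, limma adjusted p = 0.0774) did not pass. With the replicate block it was called higher (limma adjusted p = 0.0155), as it was by edgeR on the recovered reads (0.30, adjusted p = 0.0403) and without SRMS shRNA replicate 1 (0.36, limma adjusted p = 0.0079), in a range from 0.00435 to 0.411 over 21 alternatives. It was not called with the block and the length and GC trend removed (0.08, limma adjusted p = 0.411), and without SRMS shRNA replicate 3 it was at 0.12 (adjusted p = 0.298). The differences in the pairs of libraries with the same number were 0.05, 0.14 and 0.57, all toward higher RELB.

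Of the 3 inhibitors NFKBIA was lower and TNFAIP3 and NFKBIE did not pass the test. NFKBIA encodes IκBα, the inhibitor that holds p65 and p50 in the cytoplasm and is itself resynthesised on NF-κB activation. Its signal was 26.5, 31.8 and 32.4 in vector replicates 1, 2 and 3, and 20.5, 25.7 and 25.4 in replicates labelled SRMS shRNA. The highest library labelled SRMS shRNA lay just below the lowest vector library, and in both groups replicate 1 was the lowest. The mean fell by 21.1%, from 30.2 ± 3.23 to 23.9 ± 2.94 (SD, n = 3 each), with a log2 fold change of -0.34 (SE 0.0983, limma adjusted p = 0.0137). In the same-numbered pairs the differences were -0.37, -0.30 and -0.34, so they varied less than the replicates of either group. The call was lost without vector replicate 2 (-0.30, limma adjusted p = 0.0540), without vector replicate 3 (-0.29, adjusted p = 0.0590), with replicates 2 and 3 averaged (-0.34, adjusted p = 0.0530), and with median or quantile scaling (-0.18 and -0.21, adjusted p = 0.153 and 0.114). Over 21 alternatives the adjusted p ran from 9.31e-12 to 0.153, and the sign was negative in each. With the block and the length and GC trend removed the log2 fold change was -0.53.

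NFKBIE encodes IκBε, another inhibitor of the classical dimers. It had 13.6, 15.0 and 15.0 with the vector and 11.9, 14.5 and 12.7 in the libraries labelled SRMS shRNA, where replicate 2 reached into the vector range. The log2 fold change was -0.16 (95% interval -0.34 to 0.03, limma adjusted p = 0.126). It was called lower with the replicate block (limma adjusted p = 0.0409) and without SRMS shRNA replicate 2 (-0.24, adjusted p = 0.0374), in a range from 0.00107 to 0.998. TNFAIP3 encodes A20, a ubiquitin-editing enzyme that ends signalling upstream of IKK. Its values, 12.3, 11.4 and 10.0 with the vector and 12.6, 10.2 and 9.85 in the libraries labelled SRMS shRNA, overlapped throughout, and in both groups replicate 1 was the highest. The log2 fold change was -0.05 (95% interval -0.29 to 0.18, limma adjusted p = 0.705).

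Of the 3 targets CXCL8 was lower, and IL6 and BIRC3 were too thinly counted for firm statements. CXCL8 encodes interleukin-8, a chemokine that attracts neutrophils. Its signal was 113, 120 and 123 in vector replicates 1, 2 and 3, and 82.3, 81.7 and 81.0 in replicates labelled SRMS shRNA. The libraries labelled SRMS shRNA lay close together and far below all vector libraries. The mean fell by 31.1%, from 118 ± 5.28 to 81.7 ± 0.665 (SD, n = 3 each), a log2 fold change of -0.53 (SE 0.0407, 95% interval -0.62 to -0.44, limma adjusted p = 3.49e-06). The gene (ENSG00000169429) lies on chromosome 4 from 73740506 to 73743716, plus strand. Reads came to 15912 over the vector libraries and 7761 over those labelled SRMS shRNA. The latter libraries also held fewer reads in all.

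IL6, which encodes the cytokine interleukin-6, had 27, 21 and 57 reads in vector replicates 1, 2 and 3 and 22, 21 and 32 in replicates labelled SRMS shRNA. In signal these were 0.903, 0.458 and 0.993 against 0.803, 0.577 and 1.02, which overlapped fully. The log2 fold change of 0.03 had a 95% interval from -0.39 to 0.45 (limma adjusted p = 0.905), so a change of the size seen for NFKBIA or smaller was not detectable at this depth. BIRC3 encodes cIAP2, a ubiquitin ligase of TNF receptor complexes that restrains cell death. It had 20, 30 and 49 reads with the vector and 38, 34 and 24 under the SRMS shRNA label. In signal these were 0.669, 0.655 and 0.854 against 1.39, 0.935 and 0.767, with replicate 3 labelled SRMS shRNA inside the vector range (log2 fold change 0.30, 95% interval -0.05 to 0.65, limma adjusted p = 0.126). It was called higher without that library (0.43, limma adjusted p = 0.0497), with median scaling (0.46, adjusted p = 0.0249) and with the block and the length and GC trend removed (0.54, adjusted p = 0.00237), in a range from 0.00237 to 0.583 over 20 alternatives.

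**Figure D3:**
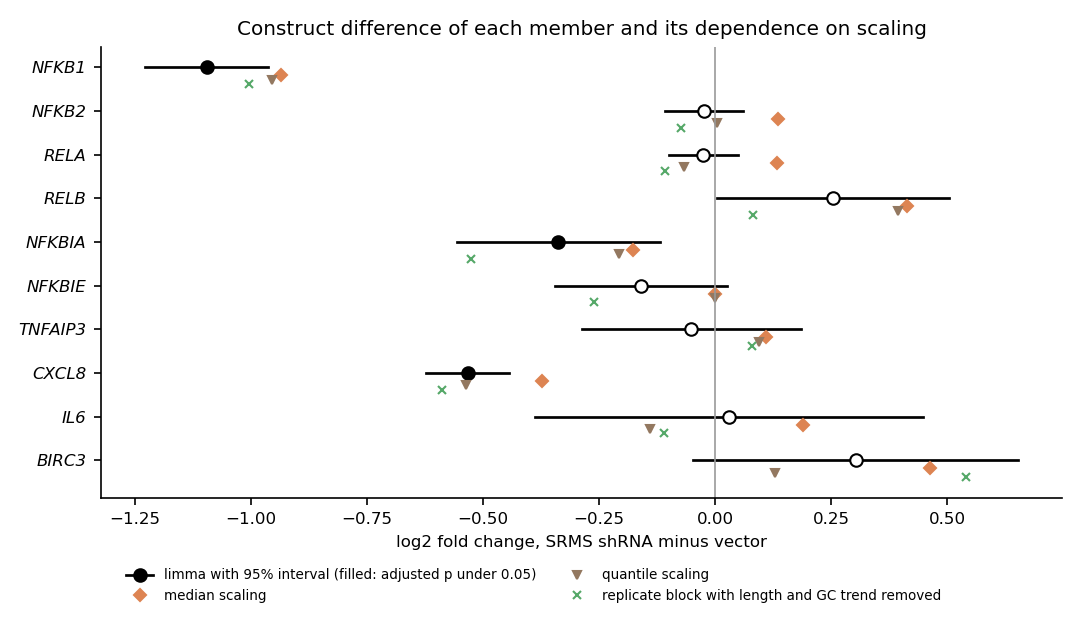
Log2 fold change of each NF-κB gene, libraries labelled SRMS shRNA minus vector. Circles and lines are limma estimates with 95% intervals (filled where the adjusted p is under 0.05), and coloured symbols are the same estimate under 3 other settings. NFKB1 and CXCL8 stay below 0 in all, at -1.09 and -0.53, whereas the symbols of RELA and NFKB2 fall on both sides of 0.

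The count of members called depended on the setting. With median scaling 4 members were higher and 2 lower, where 44.6% of all genes were higher and 17.9% lower. With the replicate block 1 was higher (RELB) and 4 lower, with NFKBIE added, where 65.3% of all genes were called. With the block and the length and GC trend removed 1 was higher and 6 lower, where 61.2% of all genes were called. With replicate 1 of both groups left out 1 was higher and 3 were lower, where 62.3% of all genes were called. NFKB1 and CXCL8 were called lower in all 21 alternatives, NFKB1 with log2 fold changes from -1.13 to -0.93 and CXCL8 from -0.59 to -0.37.

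A ratio between genes of the same library does not depend on how libraries are scaled, and was computed with RELA as the reference after the values had been seen. It shows unequal change between genes and not that RELA was constant, and without division by length it does not rank the genes. NFKB1 signal was 19.2%, 18.1% and 20.0% of RELA in vector replicates 1, 2 and 3, and 8.70%, 9.63% and 8.51% in replicates labelled SRMS shRNA. CXCL8 was 68.5%, 69.9% and 74.1% of RELA with the vector and 49.6%, 50.6% and 49.0% in the libraries labelled SRMS shRNA. NFKBIA was 16.1%, 18.6% and 19.5% against 12.3%, 15.9% and 15.4%. The groups were separate for these 3, narrowly for NFKBIA. RELB ran from 5.33% to 5.70% of RELA with the vector and from 5.71% to 8.10% in the libraries labelled SRMS shRNA, which also did not overlap but nearly touched. NFKB2, NFKBIE, TNFAIP3, IL6 and BIRC3 overlapped, with NFKB2 at 41.1 ± 1.17% and 41.1 ± 0.905% of RELA (SD, n = 3 each). The share of all genes whose ratio to RELA separates the groups was not computed. In plain signal the groups did not overlap for 62.7% of all genes, so separate ratios do not set these members apart.

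**Figure D4:**
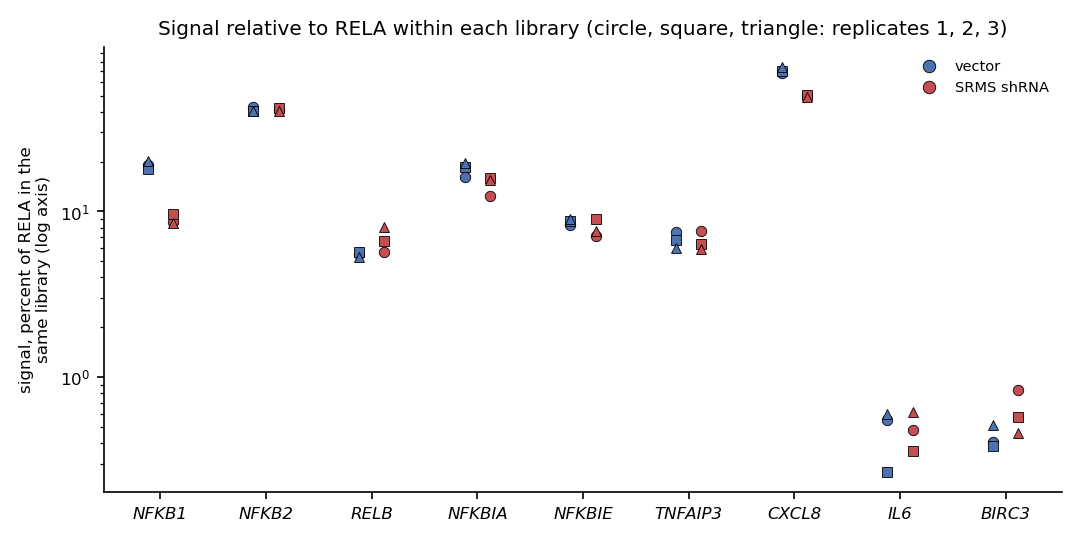
Signal of 9 NF-κB genes as a percent of RELA signal in the same library, on a log axis. Symbols are replicates and colours the 2 constructs. NFKB1 moves from 19.1% to 8.94% on average, whereas NFKB2 stays at 41.1% in both groups.

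Levels were compared between members as signal per kilobase of 1 transcript per gene. With the vector CXCL8 stood first at 69.5 per kilobase, followed by RELA at 61.9, NFKB2 at 22.1, NFKBIA at 19.4, NFKB1 at 7.81, NFKBIE at 5.64, RELB at 4.03, TNFAIP3 at 2.38, IL6 at 0.514 and BIRC3 at 0.140. No neighbours in that order overlapped over the 3 vector libraries. In the libraries labelled SRMS shRNA RELA stood first at 60.8 per kilobase and CXCL8 second at 47.9. NFKB1, at 3.59, came after NFKBIE at 5.04 and RELB at 4.89, which overlapped each other, and the other members kept their places.

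Other genes of the pathway were taken from 7 lists with 97 genes, of which 83 were tested. Over these lists 11 genes were higher and 45 lower, 27 did not pass the limma test, and the median log2 fold change was -0.22. With median scaling 22 were higher and 31 lower, so the balance of calls depends on the scaling. That scaling shifts all genes upward, and 44.6% of them then passed as higher and 17.9% as lower. The lists stayed below all genes in both fits, at -0.06 against 0.16 with median scaling and -0.22 against 0.0031 without it. With the replicate block and the length and GC trend removed 8 were higher and 48 lower and the median was -0.18, where 28.6% of all genes were higher and 32.6% lower. Over all genes the fifth with the shortest transcripts (median 1260 nt) had a median log2 fold change of 0.23 and the fifth with the longest (median 7074.5 nt) -0.23. The median transcript of the 83 genes was 3441 nt against 3055 nt over all genes.

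Genes of IKK, of upstream kinases and of their partner proteins were mostly lower. Of 11 genes 0 were higher and 10 lower by limma, where 26.6% and 30.2% of all genes were. The median log2 fold change was -0.35. With median scaling 0 were higher and 5 lower, where 44.6% and 17.9% of all genes were. TAB2, an adaptor that brings ubiquitin chains to the TAK1 kinase, fell from 44.0 ± 1.22 to 20.4 ± 0.299 (SD, n = 3 each, log2 fold change -1.09, limma adjusted p = 1.68e-07). TBK1, an IKK-related kinase, fell from 47.8 ± 1.61 to 28.1 ± 0.840, and MAP3K7, which encodes TAK1 itself, from 68.0 ± 1.41 to 51.9 ± 1.99. The IKK core moved less, with CHUK (IKKα) at -0.23, IKBKB (IKKβ) at -0.18 and IKBKG (NEMO) at -0.19. MAP3K14, the NIK kinase of the non-canonical branch, was at -0.86, and IKBKE, at -0.14, was the member that did not pass.

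Of 17 receptors and adaptors tested 0 were higher and 11 lower, where 26.6% and 30.2% of all genes were. Their median log2 fold change was -0.37. With median scaling 3 were higher and 8 lower, where 44.6% and 17.9% of all genes were. IRAK1, a kinase of interleukin-1 and Toll-like receptor signalling, fell from 379 ± 5.41 to 197 ± 1.18 (SD, n = 3 each, limma adjusted p = 2.75e-08). TNFRSF1A, the main TNF receptor, fell from 111 ± 0.710 to 66.1 ± 3.43, and the adaptor TRAF2 from 28.9 ± 1.41 to 19.4 ± 1.25. LTBR and TNFRSF12A, receptors that feed the non-canonical branch, did not pass the test, with log2 fold changes of 0.04 and 0.00088. Ubiquitin ligases and deubiquitinases were mixed, with 3 higher and 7 lower of 14 and a median of -0.17. OTUD7B, a deubiquitinase, fell from 25.4 ± 1.47 to 12.3 ± 2.22, the ligase ITCH from 36.0 ± 0.520 to 23.3 ± 0.432, and CUL1, a scaffold of the ligase that marks IκB, from 116 ± 3.39 to 77.9 ± 1.41.

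**Figure D5:**
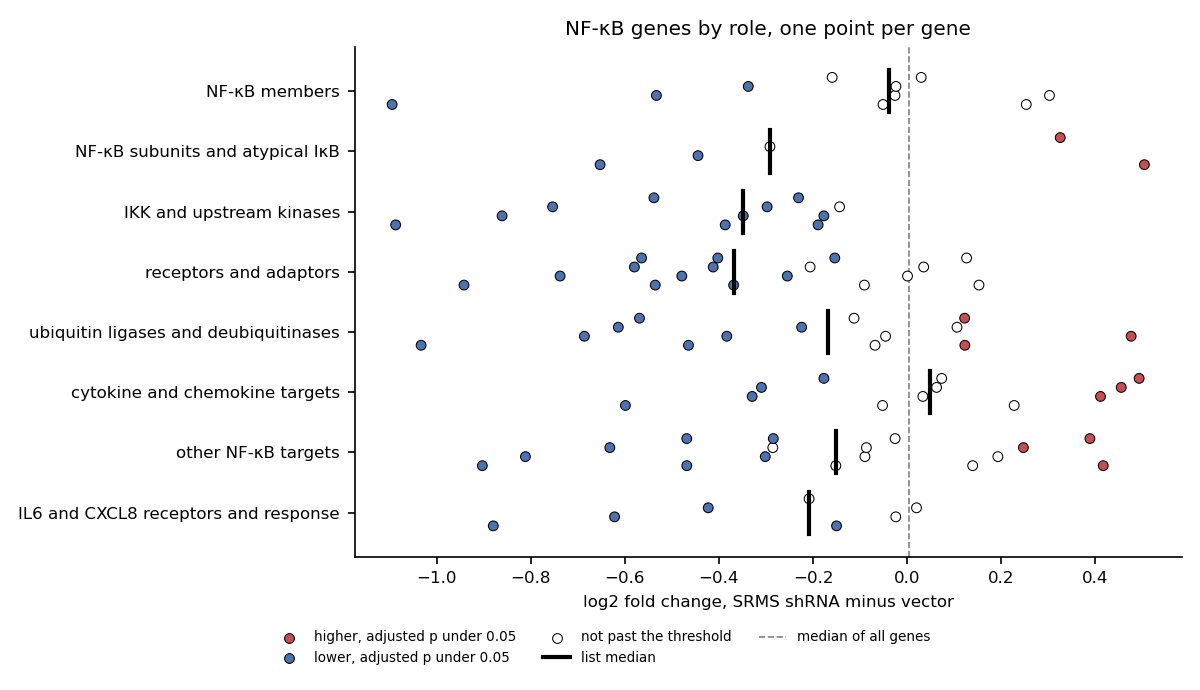
Log2 fold change of single genes of the NF-κB pathway, libraries labelled SRMS shRNA minus vector, by role. Each point is a gene, coloured where the limma adjusted p is under 0.05, short bars are list medians and the dashed line is the median of all genes. Points for IKK and upstream kinases, a list that includes adaptors, lie below 0 in this fit. IKBKE crosses 0 with median scaling, and targets lie on both sides.

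The remaining subunit REL and the less common inhibitors were split, with 2 higher and 2 lower of 5, where 26.6% and 30.2% of all genes were. NFKBIZ, a nuclear IκB that is needed for a subset of targets, rose from 32.1 ± 1.05 to 45.7 ± 0.764 (SD, n = 3 each, log2 fold change 0.50, limma adjusted p = 1.01e-05). REL, the c-Rel subunit, fell from 2.36 ± 0.164 to 1.33 ± 0.259, and NFKBID fell from 4.78 ± 0.302 to 3.38 ± 0.196. NFKBIB, which encodes IκBβ, was higher at 0.33 (limma adjusted p = 0.0051).

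Targets went in both directions. Of 12 further cytokine and chemokine genes tested, 3 were higher and 4 lower by limma, close to the 26.6% and 30.2% of all genes. The median log2 fold change was 0.05, and with median scaling 5 were higher and 1 lower, where 44.6% and 17.9% of all genes were. CXCL1, a chemokine that acts on the same receptor as interleukin-8, fell from 18.3 ± 1.19 to 11.9 ± 0.815 (SD, n = 3 each, log2 fold change -0.60, limma adjusted p = 8.71e-05). IL1B fell from 13.7 ± 0.926 to 10.8 ± 0.499, a call that was lost with median scaling (limma adjusted p = 0.0739) and quantile scaling (adjusted p = 0.0793), in a range from 1.08e-06 to 0.0793. TNF rose from 0.0964 ± 0.0523 to 0.338 ± 0.0415, at the lower end of what was counted (limma adjusted p = 0.00691), and was not called with the block and the length and GC trend removed (0.32, adjusted p = 0.0725, range 0.00122 to 0.0725). The fitted size of its change depended on the scale, with a log2 fold change of 0.49 here and 1.68 by edgeR on the recovered reads. Of the neighbouring chemokines, CXCL2 was lower at -0.31 (limma adjusted p = 0.0161), while CXCL3 and CXCL5 were at 0.03 and 0.06 and did not pass. Leukocyte markers were also higher in these libraries, with 5 of 8 tested rising and 0 falling, where 26.6% of all genes rose and 30.2% fell. CD14 had the largest log2 fold change at 1.45, from 0.879 ± 0.197 to 3.24 ± 0.370 (SD, n = 3 each, limma adjusted p = 1.23e-05). CD79A was at 0.76, FCER1G at 0.75, LYZ at 0.54 and CD68 at 0.23. The summed signal of the 8 markers was 52.8 to 55.9 with the vector and 66.0 to 72.1 under the SRMS shRNA label. CD68 made up most of it, and PTPRC, CD3E, CD3D, MS4A1, ITGAM and TYROBP were not among the genes tested. The summed signal of endothelial and of fibroblast markers was lower, and each sum was mostly 1 gene. Of 3 endothelial markers tested 0 rose and 1 fell, CDH5, from 15.2 ± 1.09 to 6.12 ± 0.763 (SD, n = 3 each, log2 fold change -1.25), and the summed signal was 14.8 to 16.8 with the vector and 5.88 to 8.36 under the SRMS shRNA label. PECAM1 and KDR did not pass, with log2 fold changes of 0.32 and -0.08. Of 6 fibroblast markers tested 1 rose and 2 fell. THY1 rose from 113 ± 4.67 to 132 ± 3.14 (log2 fold change 0.23), and PDGFRA and COL1A1 fell. The sum, 1358 to 1365 against 953 to 963, was mostly COL1A1, which fell from 1238 ± 1.77 to 816 ± 3.24 (log2 fold change -0.60). VWF, TEK, CLDN5, EMCN, DCN and LUM were not among the genes tested. The part of these 3 marker lists in the cytokine values was not tested.

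Of 17 other targets tested, 3 were higher and 7 lower (median log2 fold change -0.15), where 26.6% and 30.2% of all genes were. With median scaling 6 were higher and 6 lower, where 44.6% and 17.9% of all genes were. PTX3, a secreted pattern-recognition protein, fell from 268 ± 2.22 to 143 ± 3.22 (SD, n = 3 each, limma adjusted p = 6.19e-08), and the kinase NUAK2 fell from 5.39 ± 0.430 to 2.85 ± 0.219. SDC4, a cell-surface proteoglycan, rose from 42.1 ± 1.02 to 56.5 ± 3.56. ICAM1, an adhesion molecule, was at -0.47 (limma adjusted p = 0.0018), and BCL2A1, an anti-apoptotic gene, was at 0.39 (adjusted p = 0.00021). Among genes for receiving and relaying IL6 and CXCL8 signals, 0 were higher and 4 lower of 7, where 26.6% and 30.2% of all genes were. The kinase JAK2 fell from 13.4 ± 0.674 to 7.07 ± 0.768, IL6ST, the gp130 receptor chain, from 69.1 ± 2.87 to 44.9 ± 5.19, and the transcription factor STAT3 from 35.7 ± 1.86 to 26.5 ± 2.17. With median scaling 1 was higher and 3 lower in this list, where 44.6% and 17.9% of all genes were. Removal of the length and GC trend, with the block, brought the log2 fold change of IL6ST from -0.62 to -0.32, of MAP3K7 from -0.39 to -0.18, of REL from -0.65 to -0.36 and of ITCH from -0.61 to -0.36. With median scaling MAP3K7 was at -0.23, NFKBID moved from -0.44 to -0.28 and STAT3 from -0.42 to -0.26. Each of these 6 genes was still called lower by limma.

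Genes with and without a κB consensus match near a start had close shares of calls. Of 1922 tested genes with a match in a window 26.4% were higher and 32.5% lower, and the median log2 fold change was -0.0099. Of 9391 genes whose windows held none, 26.3% were higher and 31.3% lower, and their median was -0.0070. Among the members with a κB consensus match, NFKB1 and NFKBIA were lower and NFKB2, TNFAIP3, IL6 and BIRC3 did not pass.

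Genes whose log2 values followed CXCL8 most closely over the 6 libraries were GIT2, YTHDF1 and SENP6, with Pearson r of 0.9996, 0.9991 and 0.9990. So many genes differ between the constructs that 1751 of 11329 genes compared had r above 0.95. For IL6 the closest were STAT5A, COMMD5 and SIRT3, with r of 0.977, 0.962 and 0.961, and 3 genes were above 0.95. The points share library and depth, and IL6 rests on few reads, so these values describe the 6 libraries only.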

How the data were processed

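Poly(A) RNA was sequenced in all samples with stranded TruSeq libraries and paired ends on a NovaSeq, per the labels' protocols. FastQC, cutadapt, HISAT2, StringTie and edgeR are named with build GRCh38, per the submitters' processing notes; the sources used here give neither versions nor the filter on low genes. The deposited table is named log CPM, but its values are a linear signal, whole reads scaled by the authors to an effective library size as for CPM. Dividing by the signal of 1 read returned whole numbers (tolerance 0.1) for 99.99% or more of each library's values. The plan allowed for log2 or linear values and used log2(signal + 0.5). Of 14042 rows, the 13 for Y copies of pseudoautosomal genes were left out. Symbols matched 14007 of 14029 genes, and coordinates and lengths are those of GENCODE release 29.

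The test was limma 3.58.1 in R 4.3.3 with a mean-variance trend on all 14029 genes and the 6 libraries given cisplatin. P-values were adjusted by Benjamini-Hochberg across all genes, with a threshold of 0.05. It was tried on simulated counts with few changed genes and no replicate structure, which cannot show how well it is calibrated on these data. Alternatives were median and quantile scaling, a filter on low values, other pseudocounts, no trend, array weights, the replicate block with and without removal of length and GC trends (splines with 4 degrees of freedom), left-out or averaged libraries, edgeR 4.0.16 and DESeq2 1.42.0 on the recovered reads, and a threshold of 0.01. The main test was unpaired. Same-numbered libraries of the 2 groups deviated together from their group means (r = 0.486, 0.238 and 0.225 across 11353 genes). Replicate 2 of one group and 3 of the other correlated almost as much (0.202 and 0.198), so the match by number is clear for replicate 1 alone. Libraries were treated as pairs only in the fits with the replicate block and in the differences of same-numbered libraries. Members, lists and the rule for named genes (all members, SRMS and, per list, the 3 with the smallest adjusted p) were chosen with earlier results of these data known; further list genes were named after their values were seen. The PBS samples are not analysed here.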

Additional observations from a re-analysis of the deposited data

How the results depend on the processing

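Of 21 alternatives, none moved the count in both directions together by over 1.5 times, over all genes or over the 83 pathway genes. The balance of directions did move. With median scaling the genes called higher went from 3736 to 6254 and those lower from 4233 to 2510. Pathway genes called higher went from 11 to 22 and those lower from 45 to 31. The 3 members called became 6 with median scaling, 5 with the replicate block and 7 with the block and the length and GC trend removed (61.2% of all genes), and 2 to 4 with single libraries left out. Without single libraries the log2 fold change of SRMS ran from 0.23 to 0.84. With the replicate block it was 0.52 and without replicate 1 of both groups 0.51, both past the threshold. The sign changed for members near 0. With median scaling NFKB2 was at 0.14, RELA at 0.13, NFKBIE at 0.00071 and TNFAIP3 at 0.11. With quantile scaling NFKB2 was at 0.0033, TNFAIP3 at 0.094 and IL6 at -0.14. With the block and the length and GC trend removed TNFAIP3 was at 0.080 and IL6 at -0.11. Without single libraries TNFAIP3 ran from -0.16 (SRMS shRNA replicate 1) to 0.014 (vector replicate 1, SRMS shRNA replicate 3), and IL6 from -0.17 (vector replicate 2) through -0.091 (SRMS shRNA replicate 3) to 0.16 (SRMS shRNA replicate 2). IL6 was at -0.011 with replicates 2 and 3 averaged. Apart from the shift of all genes that median scaling makes, the cause was not tested. The block changed no other call among the named genes. Depth limits IL6 and BIRC3, with 75 to 105 reads per group.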
